A study of Homo sapiens with 6 samples.

Results

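The MYC, MAX and MLX network is a set of basic helix-loop-helix leucine zipper transcription factors that pair with each other and compete for E-box DNA. Its 10 genes examined here (MYC, MAX, MXD1, MXD3, MXD4, MXI1, MNT, MGA, MLX and MLXIP) were taken by symbol from a table of 58735 genes, and all 10 had a row. The set was chosen by the FPKM difference of its genes between knockout and wild-type libraries, which was already known. That difference is therefore a description here, without a test.

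The RNA came from the human fibrosarcoma cell line HT1080. The knockout (KO) group held 3 libraries of HT1080 cells in which CRISPR-Cas9 was used to disrupt GPR56, an adhesion G protein-coupled receptor encoded by ADGRG1. The wild-type (WT) group held 3 libraries of HT1080 cells without that knockout. Sample descriptions of both genotypes carry the name of the solvent DMSO with no dose or time. Neither the number of KO clones nor the independence of the cultures is stated in the labels. The spread between libraries may thus be technical, and effects of genotype and of clone cannot be told apart.

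MYC drives growth, ribosome assembly and metabolism when it is bound to MAX, the partner shared by most of the network. The MXD proteins, MXI1 and MNT also bind MAX and recruit SIN3 corepressors to the same E-boxes, so they oppose MYC. MGA brings MAX to a Polycomb repressor complex, and MLX pairs with MLXIP (MondoA), which responds to glucose phosphates and drives TXNIP.

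The network's proteins recognise the E-box CACGTG, and 3 of the genes carry that motif close to their own start. RefSeq promoter windows on GRCh38.p14, from 250 bases before to 50 bases after a start, were matched for 9 of the 10 genes, all but MYC, in 14 windows. An exact CACGTG, a palindrome that reads the same on either strand, was present for 3 of the 9 (MNT, MXD4 and MLX), against 8.77% of 27305 genes with such windows. By window it was present in 3 of 14, against 7.26% of 35116 windows. The network windows held 55 to 76% GC, and the windows set against them were not matched for GC. The stretches that hold it are shown from 5′ to 3′ on the gene's strand with the E-box in capitals. Of the 3 genes, MXD4 and MNT had the largest increases in the network, and MLX was level between genotypes. A link between the motif and these differences was not tested. Distances are counted from the RefSeq start of the window, which differs from the gene positions given below. A match describes the letters of the window and says nothing of binding.
MXD4, chr4:2262312-2262359, minus strand, E-box 238 bases before the start: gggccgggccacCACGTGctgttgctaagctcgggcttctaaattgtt
MNT, chr17:2401218-2401283, minus strand, E-box 193 bases before the start: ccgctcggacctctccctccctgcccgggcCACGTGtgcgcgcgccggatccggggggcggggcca
MLX, chr17:42567020-42567085, plus strand, E-box 50 bases before the start: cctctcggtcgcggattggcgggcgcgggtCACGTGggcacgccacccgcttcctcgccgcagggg

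The deposited values are FPKM (reads scaled by exonic length and library size) and correspond to 16955111 to 17276269 recovered reads in KO and 16410352 to 16461752 in WT. The library sizes implied by the FPKM differed somewhat from these totals, as in KO 3 (1.66e+07 against 16955111) and WT 1 (1.69e+07 against 16434344). ADGRG1 stood at 2.68, 2.54 and 2.58 FPKM in the KO libraries, against 6.61, 6.07 and 6.87 FPKM in the WT libraries, so its mRNA was lower and still present in every KO library. Of 9 mesenchymal markers 6 passed the expression filter, with VIM the most abundant, while COL1A1, COL1A2 and THY1 lay under 1 FPKM on average. Of the 6, 3 rose in KO (limma adjusted p under 0.05) and 0 fell. Over all 12000 genes tested, 21.0% rose and 22.4% fell by that threshold. With 6 genes, nothing is read from this count. All 17 epithelial, leukocyte, endothelial and hepatocyte markers averaged under 1 FPKM. The summed endothelial markers were at 1.37 to 1.57 FPKM in KO and 0.289 to 0.379 FPKM in WT, and the summed epithelial ones at 0.901 to 1.005 FPKM in KO and 0.345 to 0.396 FPKM in WT, while CDH1, PTPRC and ALB were at 0 in all 6 libraries. Their part in the results below was not tested. In bulk RNA, fewer cells with a transcript and less of it per cell cannot be told apart.

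MYC was 2.88-fold lower in KO cells, while its repressive counterparts MXD4 and MNT were higher and its partner MAX was nearly level. The repressors did not move as one: MXD3 and MXI1 were higher as well, and MXD1 and MGA were lower. MYC (ENSG00000136997, chromosome 8, positions 127735434 to 127741434, plus strand, GRCh38) had 9.42, 9.43 and 9.41 FPKM in the KO libraries, against 27.5, 24.7 and 29.2 FPKM in the WT libraries. The genotypes were far apart, and the KO values were nearly identical to each other. The means were 9.42 ± 0.01 FPKM in KO and 27.1 ± 2.3 FPKM in WT (SD, n = 3 each), a log2 difference of −1.43 (SE 0.07) on the scale of log2(FPKM + 1) used throughout, KO minus WT. These values rest on 469 to 487 reads per KO library and 1234 to 1457 reads per WT library.

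MAX (ENSG00000125952, chromosome 14, minus strand) is a partner of MYC and of its antagonists. It had 11.4, 11.0 and 11.9 FPKM in the KO libraries, against 12.7, 12.9 and 12.2 FPKM in the WT libraries. All KO values lay under all WT values, by a small margin, with a log2 difference of −0.13 (SE 0.06). The ratio of MYC to MAX mRNA per length was 0.825 ± 0.032 in KO and 2.16 ± 0.24 in WT (SD, n = 3 each). MYC thus had the lower FPKM of the pair in each KO library and the higher FPKM in each WT library. FPKM divides by the union of annotated exons, 3001 bases for MYC and 4430 for MAX. A ranking between genes depends on those lengths and may differ for the transcripts expressed.

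**Figure D1:**
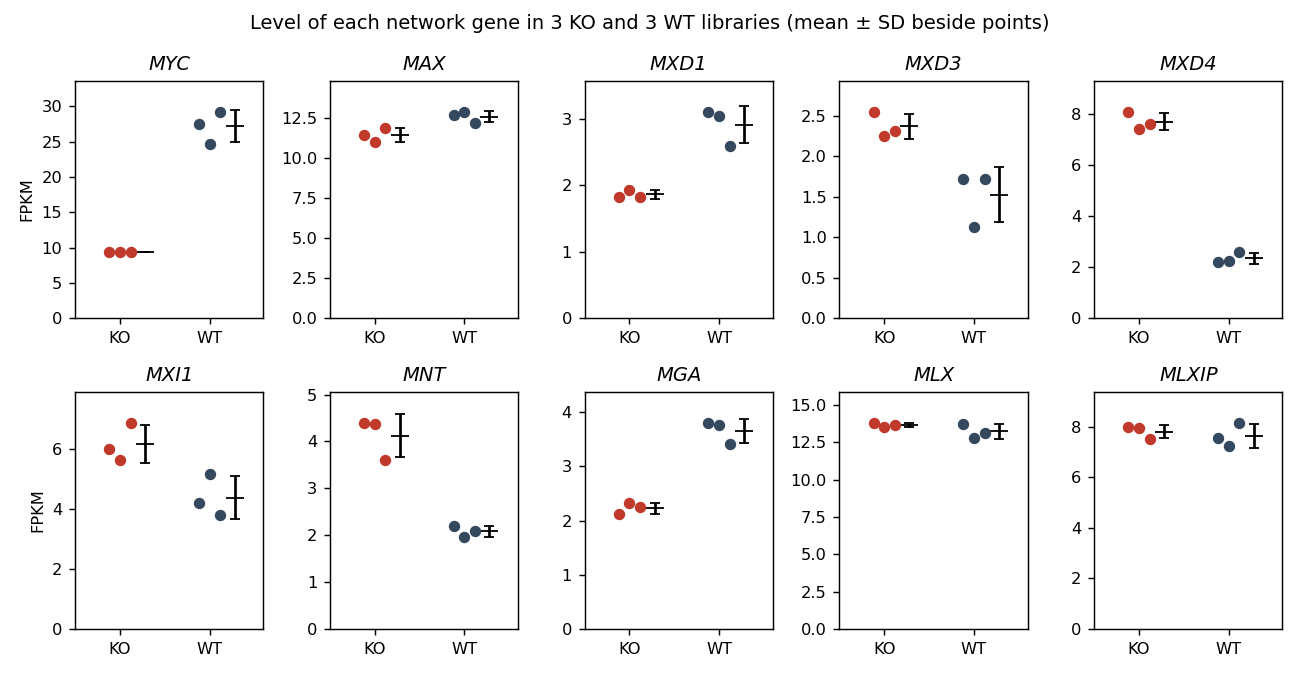
Level in FPKM (vertical axes, each from 0) of the 10 network genes in the 3 KO libraries (red) and the 3 WT libraries (dark blue), with the mean and SD beside the points. MYC, MXD1 and MGA are lower in KO, MXD3, MXD4, MXI1 and MNT are higher, and MLX and MLXIP overlap between genotypes.

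The MXD genes, whose products repress E-box genes with MAX and are known from differentiating and resting cells, moved in different directions. MXD4 (ENSG00000123933, chromosome 4, positions 2247432 to 2262294, minus strand) had 8.08, 7.41 and 7.59 FPKM in the KO libraries, against 2.21, 2.24 and 2.58 FPKM in the WT libraries. This was a 3.28-fold higher mean in KO, with no overlap (log2 difference 1.38, SE 0.07), and the largest increase of the 10 genes. MXI1, also a SIN3-recruiting repressor, had 5.98, 5.64 and 6.88 FPKM in the KO libraries, against 4.18, 5.16 and 3.80 FPKM in the WT libraries. The MXI1 groups did not overlap but came close, with KO 2 and WT 2 less than 0.5 FPKM apart (log2 difference 0.42, SE 0.11).

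MXD1, the founding MXD gene (chromosome 2, plus strand), went the other way from MXD4, with 1.83, 1.93 and 1.82 FPKM in the KO libraries, against 3.10, 3.05 and 2.58 FPKM in the WT libraries (log2 difference −0.45, SE 0.08). Its KO values all lay under its WT values. MXD3, the member known from dividing cells, had 2.54, 2.24 and 2.31 FPKM in the KO libraries, against 1.72, 1.13 and 1.71 FPKM in the WT libraries (log2 difference 0.43, SE 0.12). MXD3 rests on few reads, 198 to 225 per KO library and 97 to 150 per WT library. Of its exonic bases 22.5% overlap PRELID1 on the opposite strand, which averaged 131.8 FPKM, and 17.97% overlap RAB24 on the same strand. Neither the strand setting nor the treatment of reads in shared exons is stated, so its reads cannot be assigned with certainty. Its difference dropped to 0.22 when the trends on GC content and length were removed.

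MNT, a broadly expressed MAX partner that represses MYC targets (ENSG00000070444, chromosome 17, positions 2384060 to 2401118, minus strand), had 4.40, 4.37 and 3.60 FPKM in the KO libraries, against 2.20, 1.97 and 2.09 FPKM in the WT libraries. KO 3 was the lowest of the KO libraries and still well above each WT value, and the means differed 1.98-fold (log2 difference 0.73, SE 0.09). MGA, the large T-box and helix-loop-helix protein of the Polycomb complex PRC1.6 (chromosome 15, plus strand), had 2.11, 2.32 and 2.25 FPKM in the KO libraries, against 3.81, 3.76 and 3.41 FPKM in the WT libraries. It was lower in each KO library, by a log2 difference of −0.53 (SE 0.07).

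The MLX arm stood level. MLX had 13.8, 13.5 and 13.7 FPKM in the KO libraries, against 13.8, 12.8 and 13.1 FPKM in the WT libraries, and MLXIP had 7.98, 7.94 and 7.51 FPKM in the KO libraries, against 7.55, 7.23 and 8.16 FPKM in the WT libraries. The groups overlapped for MLX and for MLXIP, and the log2 differences of 0.04 (SE 0.06) and 0.03 (SE 0.06) turned to −0.05 and −0.09 after the GC and length correction. Of the exonic bases of MLX 18.1% overlap PSMC3IP on the opposite strand, a gene at 5.18 FPKM on average that was lower in KO (log2 difference −0.40, limma adjusted p = 0.0131). The ratio of MLXIP to MLX was 0.572 ± 0.020 in KO and 0.579 ± 0.038 in WT (SD, n = 3 each).

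**Figure D2:**
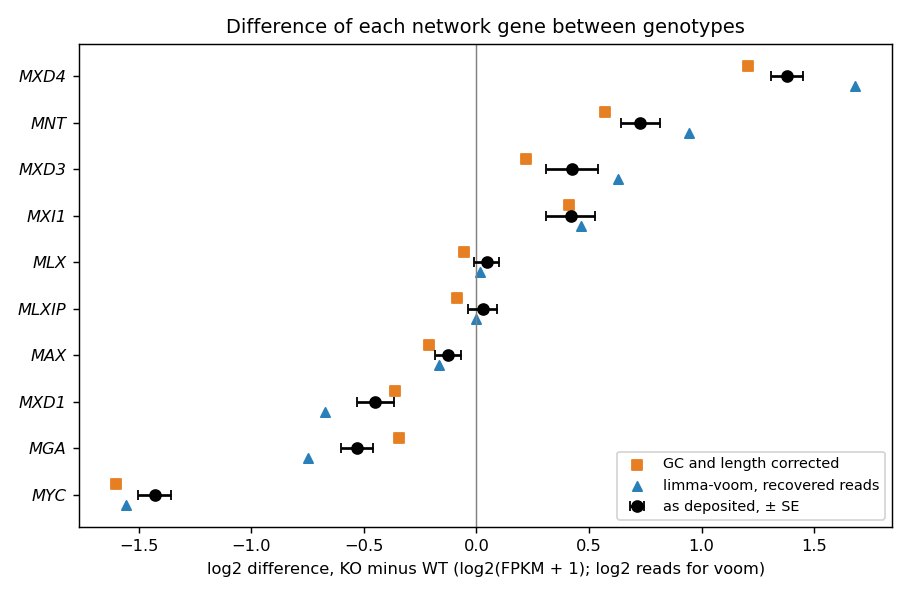
Difference between genotypes (horizontal axis, log2, KO minus WT) for each network gene, as deposited with its SE (black), after removal of the GC and length trends (orange squares) and from limma-voom on recovered reads (blue triangles). MYC stands at −1.43 and MXD4 at 1.38, and the 3 readings differ in sign for MLX and MLXIP.

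Counted as a description, 7 of the 10 genes passed the limma threshold (adjusted p under 0.05), 4 higher in KO (MXD3, MXD4, MXI1 and MNT) and 3 lower (MYC, MXD1 and MGA). Over all 12000 genes tested, 43.4% passed, 21.0% higher and 22.4% lower in KO. The groups did not overlap for 8 of the 10, 4 higher and 4 lower, against 54.7% of all tested genes, of which 26.4% were higher and 28.3% lower. Because the genes were chosen with this contrast known, nothing is read from these counts. The median log2 difference was 0.04 over the 10 genes and −0.01 over all tested genes, and 2 of the 10, MYC and MXD4, differed by at least 1 on the log2 scale.

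The order of FPKM within the network differed between genotypes, and ranks between genes depend on the exonic lengths used. In KO libraries MLX was highest at 13.7 ± 0.2 FPKM, followed by MAX at 11.4 ± 0.4 and MYC at 9.42 ± 0.01 FPKM (SD, n = 3). In WT libraries MYC led at 27.1 ± 2.3 FPKM, followed by MLX at 13.2 ± 0.5 and MAX at 12.6 ± 0.4 FPKM (SD, n = 3), whose values overlapped. MXD4 was the fifth gene in KO, overlapping with MLXIP above it, and the eighth in WT. At the low end MXD1 was last in KO, and MXD3 was last in WT; MXD3 and MGA overlapped in KO, as did MXI1 and MGA in WT.

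Summed over MXD1, MXD3, MXD4, MXI1 and MNT, the MYC-opposing mRNAs reached 22.8, 21.6 and 22.2 FPKM in the KO libraries, against 13.4, 13.5 and 12.8 FPKM in the WT libraries. MYC divided by that sum was 0.424 ± 0.012 in KO and 2.05 ± 0.23 in WT (SD, n = 3 each), 4.84-fold lower in KO, and 4.90-fold lower when MXD3 was left out of the sum. The share of MXD4 in the sum of the 3 MXD genes and MXI1 was 42.6 ± 1.6% in KO and 21.1 ± 2.7% in WT (SD, n = 3 each). MYC made up 14.1 ± 0.2% of the summed level of all 10 genes in KO and 35.0 ± 2.0% in WT. That sum was 66.8 ± 0.9 FPKM in KO and 77.5 ± 2.3 FPKM in WT. These are FPKM of mRNA, so sums and ratios across genes depend on the exonic lengths used. Protein was not measured.

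**Figure D3:**
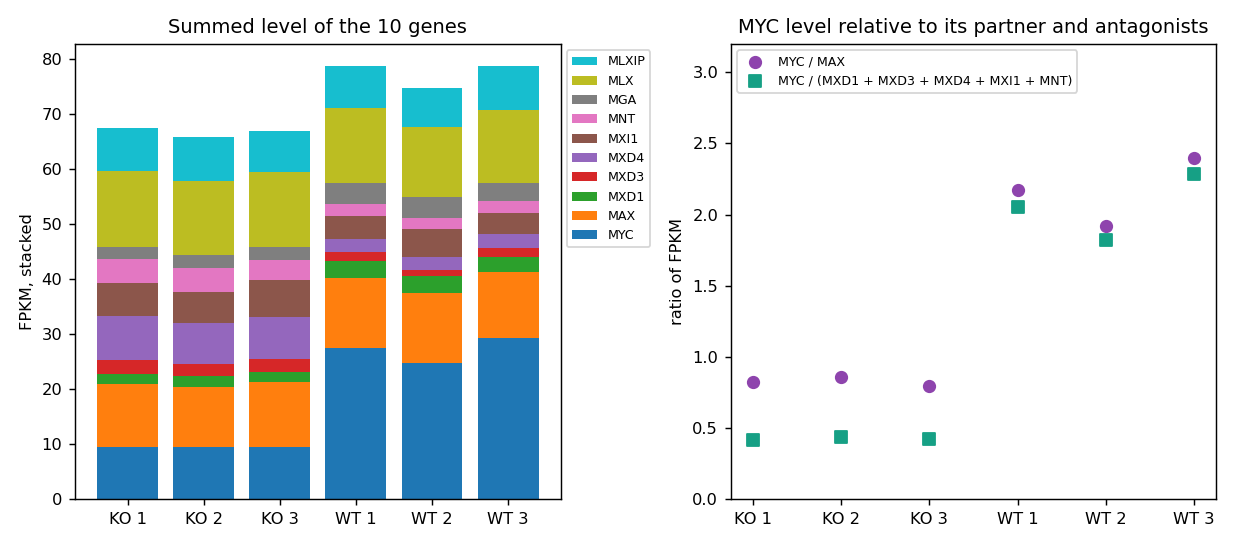
Left, stacked FPKM of the 10 network genes in each library; right, ratio of MYC to MAX (circles) and of MYC to the sum of MXD1, MXD3, MXD4, MXI1 and MNT (squares), in FPKM. The second ratio lies between 0.413 and 0.437 in KO and between 1.82 and 2.29 in WT.

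Other genes of the same families were scarcely present. MYCN, the MYC paralogue of neural tissue, had 1 read over the KO libraries and 1 read over the WT libraries. MLXIPL (ChREBP), the liver-type counterpart of MLXIP, had 0 reads in all 6 libraries, where 3 reads would be 0.0363 to 0.0375 FPKM. MYCL, the third MYC gene, had 0.69, 0.77 and 0.54 FPKM in the KO libraries, against 0.42, 0.18 and 0.44 FPKM in the WT libraries, and lay under the filter for testing. Its groups did not overlap, and its 172 reads over the KO libraries and 88 over the WT libraries were far fewer than those of MYC.

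Chromosomal neighbours of the network genes varied widely. Of the genes within 2 Mb of MYC, PVT1 and RNU1-106P passed the filter. PVT1, the long non-coding RNA next to MYC, had 2.41, 2.67 and 2.29 FPKM in the KO libraries, against 2.59, 2.10 and 2.41 FPKM in the WT libraries, which overlapped (limma adjusted p = 0.751). RNU1-106P had 8 reads over the KO libraries and 9 over the WT libraries. The 39 tested neighbours of MXD4 had a median log2 difference of 0.04, with 8 higher and 4 lower, and the 49 neighbours of MNT had one of 0.03, with 9 higher and 5 lower. For the remaining genes the neighbours' medians were −0.10 to 0.15, the highest being that of MXD3. There were 12 higher and 11 lower of 55 around MGA, and 21 higher and 5 lower of 69 around MLX. Around MLXIP 11 were higher and 16 lower of 62, and around MAX 3 and 6 of 16. Around MXD3 12 were higher and 4 lower of 39, around MXD1 3 and 5 of 26, and around MXI1 1 and 4 of 12. Over all tested genes 21.0% were higher and 22.4% lower. Single neighbours ranged from −2.57 near MLXIP to 2.18 near MLX, beyond the differences of the network genes themselves.

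Over the 6 libraries, the genes whose centred log2(FPKM + 1) profile came closest to that of MYC by root mean square difference were CD22, ELFN1, ISM1, HSPA1A and NRSN2. Their differences from the MYC profile were 0.0679 to 0.0892 on that log2 scale, and each was lower in KO with log2 differences of −1.35 to −1.56. HSPA1A encodes a stress-induced chaperone, with a near-identical copy in HSPA1B. None of these 5 genes lies on chromosome 8. With 2 genotypes, such a likeness mostly reflects the step between them.

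Genes that MYC is known to activate in the nucleolus and in ribosome assembly were lower more often than higher in KO. This list and those below were written with earlier results of these data known, so their counts are descriptions. Among 29 tested genes 13 fell and 1 rose, and 15 missed the threshold, with a median log2 difference of −0.14 against −0.01 over all tested genes, where 22.4% fell and 21.0% rose. NOP58, a core protein of the particles that methylate ribosomal RNA, fell to 24.3, 20.5 and 22.2 FPKM in the KO libraries, against 45.6, 45.1 and 40.5 FPKM in the WT libraries (log2 difference −0.94, SE 0.08, limma adjusted p = 0.000223). NIP7, a factor of the large ribosomal subunit, fell to 15.8, 17.6 and 18.1 FPKM in the KO libraries, against 27.3, 30.4 and 27.6 FPKM in the WT libraries (limma adjusted p = 0.000497); 20.2% of its exonic bases overlap COG8 on the opposite strand. The KO and WT values of NOP58 and NIP7 were well apart. FBL, the methyltransferase of the same particles, was the gene that rose, with 77.3, 72.8 and 74.2 FPKM in the KO libraries, against 60.2, 58.1 and 68.8 FPKM in the WT libraries (log2 difference 0.26, limma adjusted p = 0.0295). After the GC and length correction 21 of the 29 fell and 0 rose, with a median of −0.24. Over all genes that correction gave 5206 calls among 11992 tested, 47.5% of the calls being higher in KO. Summed over the 30 genes of the list, the level was 1397 to 1450 FPKM in KO and 1632 to 1716 FPKM in WT.

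Activated targets in metabolism, translation and growth held changes in either direction. Among 26 tested genes 10 fell and 4 rose, and 12 missed the threshold, with a median of −0.17; after the GC and length correction 12 fell and 2 rose. The share called was 53.8%, against 43.4% of all tested genes. SLC1A5, the glutamine importer, fell to 45.6, 47.9 and 45.6 FPKM in the KO libraries, against 74.7, 69.3 and 87.3 FPKM in the WT libraries (log2 difference −0.71, SE 0.09, limma adjusted p = 0.00094). CDC25A, a phosphatase that activates cyclin-dependent kinases, fell to 10.1 FPKM on average in KO, against 15.3 FPKM in WT (limma adjusted p = 0.00102). Going the other way, IMPDH2, which makes guanine nucleotides, rose to 160.3, 156.0 and 154.8 FPKM in the KO libraries, against 107.6, 105.1 and 113.5 FPKM in the WT libraries (limma adjusted p = 0.000611). LDHA, lactate dehydrogenase, rose by a log2 difference of 0.28 (limma adjusted p = 0.0457). ODC1 and CAD, textbook MYC targets of polyamine and pyrimidine synthesis chosen after their values were seen, differed in outcome. ODC1 fell (log2 difference −0.52, limma adjusted p = 0.00355), and CAD had 21.6 to 21.9 FPKM in KO and 21.2 to 25.7 FPKM in WT (limma adjusted p = 0.373).

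Among genes known as repressed by MYC, 3 of 7 tested rose, 0 fell and 4 missed the threshold, while after the GC and length correction 3 rose and 2 fell. The share called, 42.9%, was close to the 43.4% of all tested genes, and 21.0% of all tested genes rose. PDGFRB, the receptor for platelet-derived growth factor, rose to 3.79, 3.44 and 3.58 FPKM in the KO libraries, against 0.65, 0.49 and 0.70 FPKM in the WT libraries (log2 difference 1.52, SE 0.09, limma adjusted p = 4.32e-05); it is also one of the mesenchymal markers. CDKN1A, the cell cycle inhibitor p21, which is also a target of p53, rose to 142.7, 143.5 and 139.7 FPKM in the KO libraries, against 60.0, 55.7 and 70.5 FPKM in the WT libraries (limma adjusted p = 0.000138). NDRG1 was the remaining one, with a log2 difference of 0.86. CDKN2B, the inhibitor that MYC represses through MIZ1, was listed at 0 in all 6 libraries, and NDRG2 lay under the filter.

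**Figure D4:**
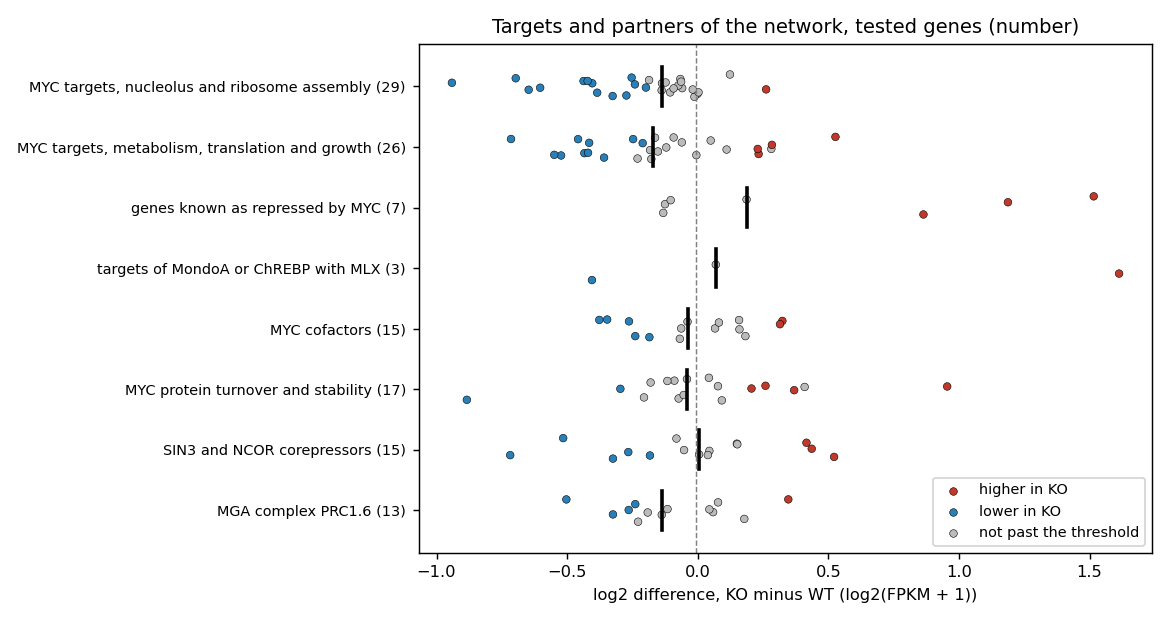
Log2 difference (horizontal axis, KO minus WT) of each tested gene in 8 lists of targets and partners, red where higher in KO, blue where lower and grey where the threshold was not passed; black bars are list medians and the dashed line is the median of all tested genes. The nucleolar list has 13 blue points and 1 red point, and TXNIP at 1.61 is the highest point.

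TXNIP, the glucose-responsive target of MLXIP with MLX that limits glucose uptake, rose in KO, while the values of MLXIP and MLX overlapped between genotypes. It had 5.43, 4.72 and 5.68 FPKM in the KO libraries, against 1.14, 0.99 and 1.01 FPKM in the WT libraries (log2 difference 1.61, SE 0.09, limma adjusted p = 2.98e-05). All KO values were more than 4-fold the highest WT value. ARRDC4, its relative and a target of the same pair, lay under the filter at 0.42, 0.46 and 0.33 FPKM in the KO libraries, against 0.15, 0.13 and 0.10 FPKM in the WT libraries. KLF10, the other gene of the list past the threshold, fell (log2 difference −0.41, limma adjusted p = 0.0248). The list had 1 call in place of 2 without KO 1, KO 2, WT 1 or WT 2. Those runs gave 3789 to 4620 calls over all tested genes, in place of 5207. Of 8 listed genes 3 were tested, the remaining one being PFKFB3 at 23.4 to 24.4 FPKM in KO and 21.7 to 24.9 FPKM in WT. The 2 calls made up 66.7% of these 3 genes, against 43.4% of all tested genes, a share resting on very few genes. Their median log2 difference stood at 0.07. Removing the GC and length trends turned that median to −0.08 and left 1 gene called higher and 1 lower.

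The letters in front of TXNIP and ARRDC4 are shown because they carry the network's motifs. A pair of CACGNG motifs separated by 5 bases, known as the carbohydrate response element and searched on either strand, was present in a promoter window of TXNIP and in 0.0732% of 27305 genes. None of the 9 matched network genes held it. ARRDC4 held an exact CACGTG. Capitals mark the motif, and distances are counted from the RefSeq start of the window.
TXNIP, chr1:145996621-145996697, minus strand, motif 88 bases before the start: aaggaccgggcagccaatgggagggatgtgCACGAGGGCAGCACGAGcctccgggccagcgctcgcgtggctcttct
ARRDC4, chr15:97960463-97960528, plus strand, E-box 210 bases before the start: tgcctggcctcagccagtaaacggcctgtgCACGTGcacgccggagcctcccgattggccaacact

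Cofactors through which MYC acts on chromatin and polymerase moved in either direction by small amounts. Among 15 tested genes 2 rose and 5 fell, and 8 missed the threshold, with a median of −0.04. The share called was 46.7%, close to the 43.4% of all tested genes. Without KO 2 or without WT 1 there were 3 calls in place of 7, and without KO 1 or without KO 3 there were 4. Calls over all tested genes fell too, from 5207 to 3842 without KO 2 and 3789 without WT 1. They were 4226 without KO 1 and 4418 without KO 3. The ATPases RUVBL1 and RUVBL2 rose by log2 differences of 0.32 and 0.31, and CCNT1, the cyclin of the elongation factor P-TEFb, and BPTF, a nucleosome remodeller subunit, fell by 0.38 and 0.35 (limma adjusted p of 0.00559 to 0.0168). The RUVBL1 level was 38.7 to 40.5 FPKM in KO and 29.5 to 33.0 FPKM in WT.

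Genes that set the stability of MYC protein included 4 that rose, 2 that fell and 11 that missed the threshold among 17 tested, a share called of 35.3% against 43.4% of all tested genes. After the GC and length correction 3 rose and 5 fell, and without KO 2 there were 3 calls in place of 6. Leaving out KO 2 also lowered the calls over all tested genes, from 5207 to 3842. FBXO32, a ubiquitin ligase subunit known to target MYC, rose to 7.40, 7.06 and 7.80 FPKM in the KO libraries, against 3.16, 3.78 and 3.11 FPKM in the WT libraries (log2 difference 0.95, SE 0.08, limma adjusted p = 0.000192). CIP2A, which shields MYC from the phosphatase PP2A, fell to 12.8, 11.5 and 12.5 FPKM in the KO libraries, against 23.1, 26.9 and 20.9 FPKM in the WT libraries (log2 difference −0.88, SE 0.10, limma adjusted p = 0.000535). Neither gene's groups overlapped. PPP2R5A, a PP2A subunit that directs it to MYC, rose (log2 difference 0.37, limma adjusted p = 0.0272), and USP36, a nucleolar deubiquitinase of MYC, fell (−0.30, limma adjusted p = 0.0142). FBXW7, the best known MYC ligase subunit, chosen after its values were seen, had 1.49 to 1.57 FPKM in KO and 1.87 to 1.97 FPKM in WT (limma adjusted p = 0.0587).

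In the SIN3 and NCOR corepressors used by the MXD proteins and MNT, 3 of 15 tested genes rose, 5 fell and 7 missed the threshold, a share called of 53.3% against 43.4% of all tested genes. After the GC and length correction 5 rose and 4 fell. SAP18 and the deacetylase HDAC3 rose by log2 differences of 0.52 and 0.44 (limma adjusted p = 0.000896 and 0.000983), and TBL1XR1 and ARID4B fell by 0.72 and 0.52 (limma adjusted p = 0.0013 and 0.00486). SIN3A, the scaffold that MXD proteins bind, also rose (8.13 to 8.94 FPKM in KO and 5.97 to 6.29 FPKM in WT, limma adjusted p = 0.0019). Its paralogue SIN3B, chosen after its values were seen, had 7.53 to 8.03 FPKM in KO and 7.15 to 8.74 FPKM in WT (limma adjusted p = 0.968).

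Partners of MGA in PRC1.6 had 1 higher, 4 lower and 8 not past the threshold of 13 tested, with a median of −0.14 and a share called of 38.5% against 43.4% of all tested genes. After the GC and length correction 3 were higher and 4 lower, with a median of −0.02. Without KO 1 or without WT 1 there were 3 calls in place of 5. Calls over all tested genes were 4226 and 3789 in these runs, in place of 5207. PCGF6, the subunit that defines this complex, fell to 4.79, 5.22 and 5.73 FPKM in the KO libraries, against 7.45, 8.47 and 7.62 FPKM in the WT libraries (log2 difference −0.50, limma adjusted p = 0.00258). HDAC2 fell as well (−0.32, limma adjusted p = 0.0109), and TFDP1, the E2F dimerisation partner, rose (0.35, limma adjusted p = 0.00541). L3MBTL2 and RNF2, further subunits chosen after their values were seen, missed the threshold (limma adjusted p = 0.129 and 0.434). WDR5, HDAC1 and HDAC2 belong to other lists too.

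Transcript GC content separated the genotypes as well. Across genes, it was correlated with each library's deviation from the gene's mean over all 6 libraries. The Spearman correlation was 0.23 to 0.47 in KO and −0.63 to −0.02 in WT, genes not being independent replicates. Deviations of a gene cancel over the 6 libraries, so the opposite signs of the genotypes are not separate observations. Transcript GC content was 60.6% for MNT, 61.0% for MXD4, 62.8% for MXD3 and 46.3% for MXI1, and 57.0% for MYC, 44.5% for MXD1 and 42.7% for MGA. With the GC and length trends removed, the log2 difference was −1.60 for MYC, 1.21 for MXD4, 0.57 for MNT, 0.41 for MXI1, −0.36 for MXD1, −0.34 for MGA and −0.21 for MAX. These 7 kept their direction, and MAX passed the threshold with this correction but not with the replicate block added to it.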

How the data were processed

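The authors deposited 1 table of FPKM values for 58735 genes in 6 libraries. For aligner, counter and strand setting, the sources used here give nothing, and the submitters' processing notes name mouse builds (GRCm38, mm10). Identifiers, starts and ends of all 58735 genes equal GENCODE release 29 (GRCh38), and the deposited gene lengths equal the union of its exons. FPKM times length stepped in whole reads (100% of values within 0.02 of a whole number).

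Genotypes were compared with limma 3.58.1 (R 4.3.3, lmFit, eBayes with trend) on log2(FPKM + 1), two-sided, over 12000 genes averaging 1 FPKM or more. The p-values were Benjamini-Hochberg adjusted, with a threshold of 0.05. The test was checked on simulated reads with 200 changed genes and no GC trend. That check does not cover the GC trends or the large share of calls seen here. Fold changes on the log2(FPKM + 1) scale understate changes of low genes. The network's genes, the target and partner lists and the markers were chosen with earlier results of these data known. Named list genes are the 2 largest increases and 2 largest decreases past the threshold; others are said to be chosen later or give a list's remaining call. Libraries of a genotype were distinct beyond sampling noise (chi-square of 4.92 to 16.5 per degree of freedom), so none was counted as a repeat deposit of another; this does not show that the cultures were independent. Alternatives changed the pseudocount, filter, scaling, test, GC and length correction, replicate block and libraries.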

Additional observations from a re-analysis of the deposited data

How the results depend on the processing

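MYC, MXD4, MNT, MXD1 and MGA kept their direction and stayed past the threshold under every alternative run that tested them; the log2 differences ranged from −1.60 to −1.38 for MYC and from 1.21 to 1.68 for MXD4. MXD3 missed the threshold in 6 alternatives and MXI1 in 4. The sign of MLX turned with the GC and length correction, without and with the replicate block (−0.0544), and that of MLXIP with the same corrections (−0.0853), limma-voom (−0.0009) and without WT 2 (−0.0071; leaving out 1 library gave −0.0071 to 0.0702). The number of network genes called higher was 2 without a filter and 2 when genes had to average 5 FPKM, which left 1 called lower and tested 6 of the 10; the causes of the other shifts were not tested. Leaving out 1 library gave 2 to 4 higher (2 without KO 3) and 3 lower. Over all genes the stricter filter left fewer genes to test and 3203 calls.

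Same-numbered KO and WT libraries had correlations of their deviations of −0.07, −0.18 and −0.35, and differently numbered ones −0.21 to 0.37. Because the deviations are taken around genotype means of few libraries and carry the GC trends, they cannot show whether the numbers mark pairs. With the replicate block the calls were 9 among nucleolar targets, 8 among metabolic targets, 3 among cofactors, 3 among turnover genes and 1 among MLX targets. Calls over all 12000 tested genes fell as well, to 3866 from 5207 in the main fit. With the GC and length correction, without and with the replicate block, 5 genes known as repressed by MYC were called. No filter gave 3 calls in PRC1.6, and the stricter filter 1 among MLX targets. Leaving out 1 library gave 8 to 14 calls among metabolic targets (8 without KO 2 or WT 1), 3 to 7 among cofactors, 3 to 6 among turnover genes, 3 to 5 in PRC1.6 and 1 to 2 among MLX targets. The same runs gave 3789 (without WT 1) to 5372 (without WT 3) calls over all tested genes, with 3842 without KO 2. Genes under about 100 reads, such as MYCL in WT, are limited by depth.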

Other observations

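MINCR, a long non-coding RNA named for its induction by MYC, was higher in KO, where MYC was lower. It had 4.36, 3.23 and 4.24 FPKM in the KO libraries, against 1.72, 2.52 and 2.40 FPKM in the WT libraries (log2 difference 0.62, limma adjusted p = 0.00875). The groups did not overlap. MINCR was chosen here with its values known, its biotype is antisense, and the strand setting of the counts is not given.

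The 3 KO values of MYC varied by 0.119%, less than the 4.56% that counting error alone gives at their mean of 480.3 reads, so their small SD understates the error of the KO mean. In WT, MYC varied by 8.36% against a counting error of 2.71%.

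EIF4A1, an abundant translation factor on the list of MYC targets, stood at 1.19 FPKM on average, and NOP2 at 0.14 FPKM. Of the exonic bases of EIF4A1 29.8% are shared with SENP3-EIF4A1 and 41.1% with AC016876.2, and 54.4% of those of NOP2 are shared with AC006064.6, all on the same strand. How reads in shared exons were counted is not given in the sources used here, and its part in these levels was not tested.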
